A study of Mus musculus with 12 samples.

Results

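The genes described here are the numbered Zfp genes that mouse limb buds express at E12.5 (days of embryonic development): protein-coding genes whose symbol is Zfp followed by digits only, chosen by a mean of at least 5 FPKM in the 3 cHet input libraries. FPKM counts sequenced fragments relative to the length of the gene and to the depth of the library. 128 genes met this rule, out of 365 protein-coding Zfp genes and 54532 genes in all. The limb buds came from embryos of genotype Mettl14 flox/flox (called cKO, the conditional knockout) or Mettl14 wt/flox (called cHet, the control, which also carries a floxed allele). RNA of the cytoplasmic lysate (input) and of its polysome fractions, the mRNAs loaded with several ribosomes on a sucrose gradient, was sequenced from each of 3 replicates per genotype, giving 4 groups of 3 libraries. Which Cre line removes the floxed allele, and in which cells, was not given in the sources used here. Since the cHet input levels chose the genes, every comparison with those libraries as a compared group is given as a description. The tests are of cKO against cHet polysomes and of cKO polysomes against cKO input.

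Zfp genes encode proteins with C2H2 zinc fingers, short units in which cysteines and histidines hold a zinc ion and a helix reads a few bases of DNA or, in some members, RNA. In the largest subfamily the fingers follow a KRAB domain, which recruits the co-repressor Trim28 (also called KAP1) and its histone methyltransferase partners to silence retroelements and imprinted loci. Other members, without KRAB, are regulators of promoters, of mesenchymal differentiation or of RNA. Mettl14 is a subunit of the enzyme that places N6-methyladenosine on RNA, a mark known to affect the decay and translation of mRNAs for transcription factors.

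The unit that gives the family its name is shown for 4 members, to show how the base composition of this unit varies between members. Each line is the coding strand of a finger unit of 84 bases, the one nearest the start of the protein, with the 15 bases that encode the linker before the finger in capitals. The genes are those with the lowest (Zfp946 and Zfp62) and the highest (Zfp513 and Zfp771) level in cKO input replicate 3 relative to the other cKO input replicates, among members with such a unit. The units lie at chr17:22455059-22455142 (plus strand, exon 7 of 7), chr11:49215606-49215689 (plus strand, exon 5 of 5), chr5:31200350-31200433 (minus strand, exon 3 of 4) and chr7:127254087-127254170 (plus strand, exon 3 of 3) of mm10, in coding sequence of GENCODE M21 transcripts.
Zfp946: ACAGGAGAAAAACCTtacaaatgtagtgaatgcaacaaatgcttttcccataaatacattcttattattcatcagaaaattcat
Zfp62: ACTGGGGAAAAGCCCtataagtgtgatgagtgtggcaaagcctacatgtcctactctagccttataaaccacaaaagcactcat
Zfp513: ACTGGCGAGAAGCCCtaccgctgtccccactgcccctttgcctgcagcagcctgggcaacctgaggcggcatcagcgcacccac
Zfp771: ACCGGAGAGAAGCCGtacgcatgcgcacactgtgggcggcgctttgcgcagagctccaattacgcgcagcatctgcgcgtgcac
The units were found by a pattern that fixes the amino acids of the linker, so likeness of the linker follows from the search. Zfp946 and Zfp771 shared 11 of its 15 bases and 41 of the 84 bases of the whole unit. The unit of Zfp946 was 28.6% G or C, that of Zfp62 44.0%, that of Zfp771 64.3% and that of Zfp513 67.9%. The same kind of protein unit was thus written in very different base compositions, and the whole transcripts spanned 36.9% (Zfp946) to 68.7% GC (Zfp771).

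The libraries held 10349912 to 30068823 assigned reads, of which the 128 genes took 0.831% to 0.969%, and the lowest count of a member in a library was 51 reads. Mettl14 itself had 4.09, 4.03 and 4.04 FPKM in the cHet input libraries and 2.60, 3.32 and 1.26 in cKO input, while its polysome values overlapped between genotypes. Limb mesenchyme markers were present in every group, all 15 of 15 with a mean above 1 FPKM. Their summed level was 977 to 1170 FPKM in cHet input and 1320 to 1585 in cKO input, and 1704 to 1905 on cHet and 1681 to 2370 on cKO polysomes. The summed level of 10 epidermis markers was 347 to 355 FPKM in cHet input and 414 to 455 in cKO input, and 187 to 198 on cHet and 245 to 470 on cKO polysomes, and that of 11 macrophage markers was 43.7 to 49.1 in cHet and 55.8 to 80.1 in cKO input, and 53.9 to 59.9 on cHet and 71.0 to 98.4 on cKO polysomes. So each of the 3 sums was higher in cKO input than in cHet input without overlap, and on polysomes the mesenchyme sums overlapped. The other lists overlapped between genotypes in input. Erythroid markers summed to 9328 to 23968 FPKM in cHet and 5797 to 14333 in cKO input. Muscle progenitor markers summed to 414 to 500 and 424 to 535, and endothelium markers to 74.1 to 82.9 and 66.2 to 97.0. None of these markers was at 0 in all libraries, and the part of the cell types in the genotype differences below was not tested. In bulk tissue, fewer cells of a type and less RNA per cell cannot be told apart.

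A single library, cKO input replicate 3, stood apart for these genes. Over the 128 members its log2 levels correlated with its group mates at a mean Pearson r of 0.751, where the 6 cHet libraries reached 0.984 to 0.994. Among all 12 libraries it held the highest value of 39 members and the lowest of 43. Zfp946 had 3.99 and 4.58 FPKM in cKO input replicates 1 and 2 and 0.828 in replicate 3, and Zfp62 had 16.9, 11.2 and 2.98. Zfp771 moved the other way, with 38.2, 35.9 and 61.8 FPKM, as did Zfp513 with 11.9, 11.8 and 18.7. These are the genes whose units are printed above. They were chosen for their values in this library, so being low or high there follows from the choice. The low genes have AT-rich transcripts (36.9% and 38.8% GC) and the high ones GC-rich transcripts (68.7% and 61.1%).

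This split ran through the whole family. The difference of replicate 3 from the mean of replicates 1 and 2, on the log2(FPKM + 0.1) scale used throughout, followed transcript GC content with a Spearman rho of 0.92 across the 128 genes, and of 0.79 across 7493 protein-coding genes of at least 5 FPKM in cHet input. The points share a library and its depth, so the value is a description. 29 members were lower there by more than 1, and the most GC-rich of them was 48.8% GC. The 9 members that were higher there by more than 0.5 were all at least 55.5% GC. For cHet input replicate 3 the rho over the members was 0.11. Members with a match to a KRAB pattern were the more exposed. There were 36 of them, with a median GC content of 44.0% against 51.6% in the 92 others. Their median difference in that library was −0.51 against 0.23. The pattern is a sequence match that can miss KRAB domains, so the others may hold KRAB genes too. The cause of the GC dependence was not tested.

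**Figure D1:**
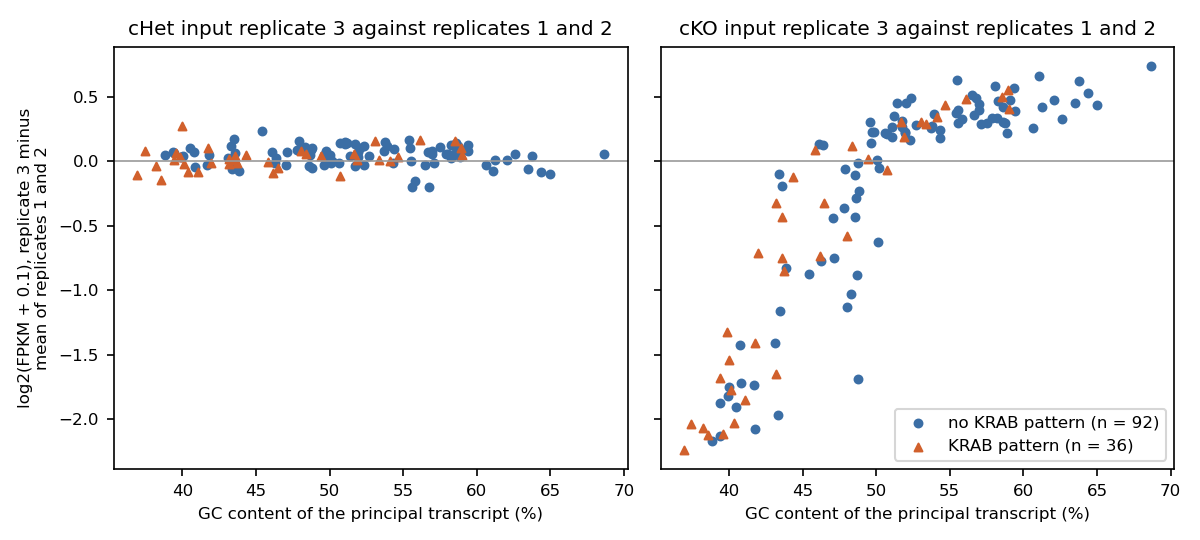
Level of each of the 128 genes in replicate 3 minus the mean of replicates 1 and 2 (log2(FPKM + 0.1)), against the GC content of its transcript in percent, for cHet input (left) and cKO input (right); triangles are the 36 genes with a KRAB pattern and circles the 92 others. The cHet points lie along 0, while the cKO points run from −2.24 (Zfp946, 36.9% GC) to 0.74 (Zfp771, 68.7% GC).

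In the control lysate the family was mostly of low level. The 3 highest members in cHet input were Zfp362 at 60.3 ± 2.68 FPKM (SD, n = 3), Zfp706 at 59.9 ± 1.57, which encodes a very small protein, and Zfp422 at 59.5 ± 1.79, levels whose spreads overlap. The median over the 128 genes was 9.01 to 9.18 FPKM in the 3 cHet input libraries. Just inside the threshold were Zfp668 (5.23 ± 0.202 FPKM), Zfp324 (5.12 ± 0.512) and Zfp790 (5.06 ± 0.166), and just outside were Zfp184 (4.97 ± 0.148), Zfp654 (4.95 ± 0.193) and Zfp691 (4.93 ± 0.466), so the edge of the group divides genes of like level.

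**Figure D2:**
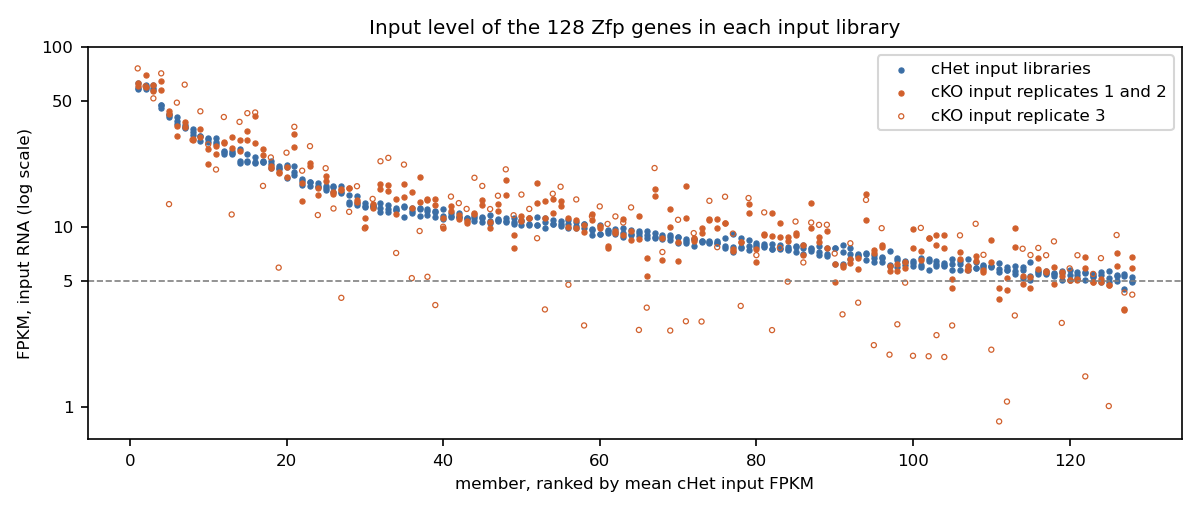
FPKM (log scale) of each of the 128 genes in the 6 input libraries, ranked by mean cHet input level; the dashed line is the threshold of 5 FPKM, and open circles are cKO input replicate 3. The 3 cHet libraries lie close together from about 60 to 5 FPKM, and the lowest points, down to 0.828 FPKM, are those of cKO input replicate 3.

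The genes share a layout that the rule did not use. Their median gene length was 5382.5 bases against 4048 for the 7497 protein-coding genes of at least 5 FPKM in cHet input, yet they had a median of 5 exons against 8. The longest exon had a median of 2868 bases against 1317. In 78 of the 116 members with at least 2 C2H2 fingers, all fingers were encoded in a single exon. The number of fingers matched by a standard C2H2 spacing pattern had a median of 9 and reached 33 in Zfp462, while Zfp503, Zfp703 and Zfp330 had no match. Chromosome 7 held 33 of the 128 genes, 25.8% against 7.23% of the comparison genes. Some members are near-copies of other genes: 11 shared over 10% of their transcript's 31-base words with another gene, led by Zfp932 (72.6%, shared most with Gm15446), Zfp825 and Zfp617, and how reads were divided between such copies could shift their values.

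The first tested question was whether polysome RNA of these genes differed between cKO and cHet. By limma with Benjamini-Hochberg adjustment, 0 of the 128 genes passed an adjusted p of 0.05, as did 0% of the 12877 genes tested, and the lowest adjusted p of a member was 0.0780. At an unadjusted p under 0.05 there were 43 members (33.6%) against 21.3% of all genes tested. 76 of the 128 were above 0, with a median log2 difference of 0.09 against 0.02 over all genes tested. The 3 libraries of each group did not overlap in 43 members with cKO higher and in 21 with cKO lower. For all genes tested these shares were 17.9% and 13.5%.

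The members with the smallest p on polysomes were led by higher values in cKO. Zfp467 (chromosome 6, 48427697 to 48445825, minus strand), a factor of the choice between bone and fat lineages, had 8.40, 8.46 and 8.42 FPKM in the cHet and 13.9, 13.5 and 14.3 in the cKO polysome libraries (log2 0.72, SE 0.12, limma adjusted p = 0.0780). The cHet values were nearly equal and every cKO value was above them. Zfp703 (chromosome 8, 26977325 to 26981461, plus strand), a co-repressor without a matched C2H2 finger, had 14.5, 14.3 and 16.1 against 30.3, 25.5 and 22.8 FPKM (log2 0.80, SE 0.15, adjusted p = 0.0848). Its difference was the largest among the members in this comparison. Zfp628 (chromosome 7, 4915217 to 4922002, plus strand), known from male germ cell development, had 9.26, 9.24 and 8.89 against 14.4, 13.8 and 16.2 FPKM (log2 0.69, SE 0.13, adjusted p = 0.0848). Zfp606, with a KRAB pattern, and Zfp574 had log2 differences of 0.57 (adjusted p = 0.0894) and 0.62 (adjusted p = 0.0898). The groups of all 5 genes were apart, but none passed the threshold with all libraries.

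The 5 members with the smallest p among those lower on cKO polysomes were Zfp324, Zfp41, Zfp946, Zfp760 and Zfp866, of which all but Zfp41 carry a KRAB pattern. Zfp324 (chromosome 7, 12965838 to 12974236, plus strand) had 5.71, 5.40 and 5.40 FPKM on cHet and 3.05, 3.99 and 3.57 on cKO polysomes (log2 −0.63, SE 0.14, adjusted p = 0.0911). Zfp41 (chromosome 15, 75616679 to 75629827, plus strand) had 21.2, 20.3 and 20.2 against 9.16, 14.9 and 14.4, and Zfp946 had 8.83, 10.2 and 10.01 against 4.42, 7.48 and 6.25. In these genes cKO polysome replicate 1 held the lowest value of its group. Zfp760 had a log2 difference of −0.58 (adjusted p = 0.131) and Zfp866 of −0.55 (adjusted p = 0.141), again with separate groups and without passing.

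**Figure D3:**
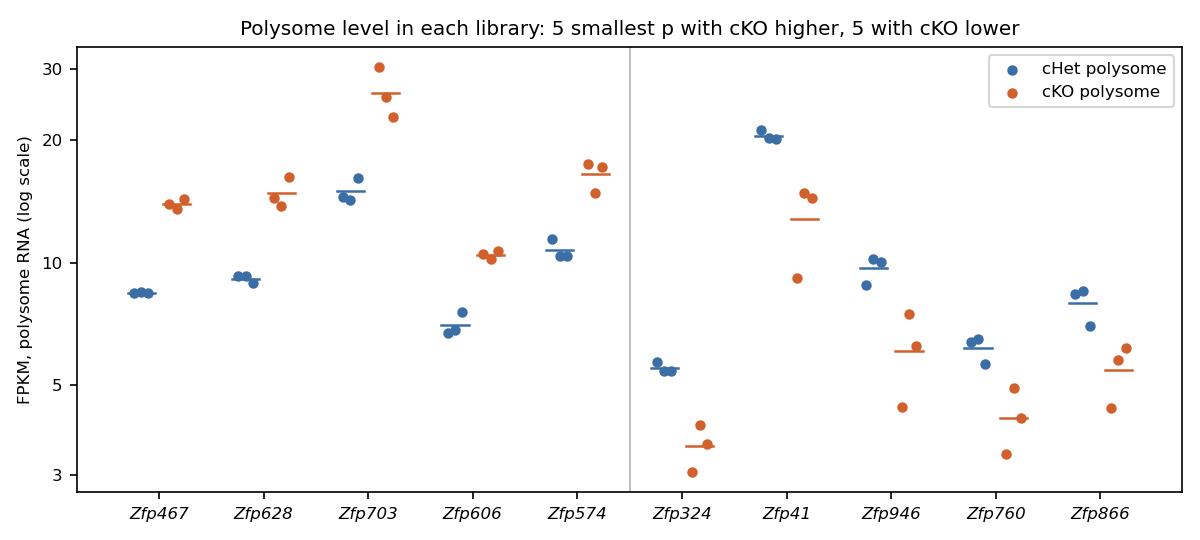
Polysome FPKM (log scale) of the 5 members with the smallest p and cKO higher (left of the line) and the 5 with cKO lower (right), in the 3 cHet (blue) and 3 cKO (orange) polysome libraries; bars are means. In each gene the groups do not overlap, from 8.40 to 8.46 against 13.5 to 14.3 FPKM in Zfp467 to 20.2 to 21.2 against 9.16 to 14.9 in Zfp41.

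This count depended on cKO polysome replicate 1, the library that lay nearest to the input libraries on the first principal component (score 3.97, where the other polysome libraries had 35.5 to 53.8). Without it, Zfp467 (log2 0.72, limma adjusted p = 0.0407), Zfp628 (0.71, adjusted p = 0.0439) and Zfp703 (0.69, adjusted p = 0.0455) rose on cKO polysomes and no member fell, among 100 higher and 60 lower of 12738 genes tested. Without cKO polysome replicate 2, 121 genes were higher and 110 lower, none of them a member. The input values of these genes had the same order: Zfp467 had 10.6, 10.8 and 11.2 FPKM in cHet and 18.2, 15.04 and 20.9 in cKO input, Zfp628 had 8.78, 9.22 and 8.65 against 16.2, 14.8 and 21.2, and Zfp703 had 21.7, 19.4 and 20.1 against 32.7, 27.7 and 36.0. All 3 are GC-rich genes (57.9%, 63.5% and 60.6% GC) and were highest in cKO input replicate 3. Their other cKO input values were also above each cHet input value. The cHet input libraries chose the genes, so these input values are a description, and the cause of the differences was not tested.

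The polysome difference between genotypes was then set beside exon number and GGACT sites, as a description whose differences were not tested. The 29 members with 1 to 3 exons had a median log2 difference of 0.27, with 20 above 0. The 99 with more exons had a median of 0.05, with 56 above 0. The cKO group lay wholly above cHet in 15 of the 29, beside 43 of all 128 members and 17.9% of all genes tested. The Spearman rho with exon number was −0.18 over the 128 members and, with the opposite sign, 0.18 over the 7493 comparison genes. GGACT, on the sense strand of the transcript, is the most common core of the sites that the Mettl14 complex methylates. The members held a median of 0.922 GGACT per kb against 1.05 in the comparison genes. The 43 members with the most GGACT per kb (from 1.21) had a median polysome difference of 0.25 with 30 above 0, and the 43 with the least (up to 0.699) had −0.06 with 18 above 0. With GGACT per kb the Spearman rho was 0.30 over the 128 members, and over the 7493 comparison genes 0.07. Without cKO polysome replicate 1 the rho over the members was 0.27. These sites are sequence matches, not measured methylation, and the values are a description over genes that share the same libraries.

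By role, the 9 members of mesenchyme and development had the highest median of 4 role lists, a log2 difference of 0.24 with 6 above 0. Beside Zfp467 and Zfp703, Zfp503, a relative of Zfp703 known from limb and brain development, had 34.3, 33.4 and 35.7 FPKM on cHet and 69.5, 53.3 and 42.0 on cKO polysomes (log2 0.64, SE 0.19, limma adjusted p = 0.143). Zfp521 and Zfp423, large paralogs that act in bone and fat precursors, had differences of 0.01 (adjusted p = 0.982) and −0.16 (adjusted p = 0.491), with overlapping groups. The 8 RNA and ribosome factors had a median of 0.21 and 6 above 0, which was 0.06 and 5 above 0 without cKO polysome replicate 1. Zfp830, an mRNA splicing factor and a single-exon gene, had 9.86, 9.53 and 11.4 against 19.99, 14.04 and 13.3 FPKM (log2 0.59, adjusted p = 0.143). The 14 promoter and chromatin regulators had a median of 0.07 and the 4 genes of imprint and retroelement silencing −0.07. No gene in these lists passed with all libraries. The lists were drawn up with earlier results of these data known and are not independent evidence of a direction.

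The second tested question was which members were enriched or depleted on cKO polysomes relative to cKO input. By limma fitted over all 12 libraries, 13 of the 128 genes were higher and 21 lower on polysomes, 10.2% and 16.4%. Over all 13610 genes tested the shares were 16.9% higher and 15.6% lower. The median log2 difference of the members was 0.09 and that of all genes tested 0.06. The fit used the same spread for all 4 groups, so the cHet libraries, with the cHet input that chose the genes, also set these p-values. Over the members, libraries correlated with their group mates at 0.984 to 0.994 in cHet and at 0.751 to 0.875 in cKO input. The p-values can therefore be too small where cKO values scatter. Without cKO input replicate 3, 23 members were higher and 37 lower, beside 22.1% and 20.5% of all genes, the median was −0.08, and 32 of the first 34 calls remained. With each library scaled to its protein-coding, non-mitochondrial FPKM, which moved the median of all genes from 0.06 to −0.07, 7 members were higher and 32 lower, and with length and GC trends removed, 28 were higher and 16 lower. The shares of all genes in these settings are not given here, so nothing about the members is read from these counts. With the lysate as block, 30 of the 34 calls remained, Zfp263, Zfp316, Zfp608 and Zfp746 no longer passed, and Zfp106, Zfp346, Zfp740 and Zfp871 did.

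The members called higher on cKO polysomes whose cKO groups did not overlap were led by short genes. Zfp146 (chromosome 7, 30161269 to 30169750, minus strand), a protein made almost wholly of zinc fingers, had 44.0, 42.6 and 13.4 FPKM in cKO input and 59.6, 61.6 and 69.7 on cKO polysomes (log2 1.11, SE 0.34, limma adjusted p = 0.0268). Its lowest input value is that of the library that stood apart, and without that library the difference was 0.55 (adjusted p = 0.00475). Zfp428 (chromosome 7, 24507006 to 24515682, plus strand) had 32.0, 36.2 and 49.0 in input and 55.7, 78.6 and 89.0 on polysomes (log2 0.92, SE 0.19, adjusted p = 0.00401), and without the library 1.10. Zfp771 (chromosome 7, 127244274 to 127254803, plus strand) had 38.2, 35.9 and 61.8 in input and 66.4, 75.7 and 97.0 on polysomes (log2 0.84, SE 0.20, adjusted p = 0.00818), and 1.09 without it. In all 3 genes every polysome value was above every input value. For the GC-rich Zfp428 and Zfp771 the library's high input value made the difference smaller, and for Zfp146 its low value made it larger. Zfp35 (0.79), Zfp105 (0.69) and Zfp426 (0.58) were next, and each passed also without that library, with 0.51, 0.43 and 0.54. Zfp146 no longer passed without cKO polysome replicate 2 or 3 (log2 1.13 and 1.05), nor did Zfp35 and Zfp105 without replicate 3 (0.69 and 0.65).

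Among members called lower on cKO polysomes whose cKO groups did not overlap, the 6 most depleted were long genes. Zfp609 (chromosome 9, 65692391 to 65827564, minus strand), a large factor of myoblast and neuronal development whose gene also gives a well-known circular RNA, had 11.2, 11.2 and 12.6 FPKM in cKO input and 6.58, 6.77 and 4.58 on cKO polysomes (log2 −0.97, SE 0.15, limma adjusted p = 0.00114). Every polysome value was below every input value, and without cKO input replicate 3 the difference was −0.92. Zfp592 (chromosome 7, 80993681 to 81045164, plus strand), a partner of the Zfp687 chromatin complex, had 9.26, 8.997 and 10.7 in input and 5.73, 6.30 and 5.01 on polysomes (log2 −0.76, SE 0.12, adjusted p = 0.00152), and −0.68 without that library. Zfp629 (−0.80), Zfp516 (−0.74), Zfp316 (−0.72) and Zfp282 (−0.67) were the others of these 6, at limma adjusted p from 0.0012 to 0.0188. All of them fell also without that library. Zfp316 no longer passed without cKO polysome replicate 2 or 3 (log2 −0.70 and −0.52) or with lysates as a block (adjusted p = 0.0511). These 6 genes measure between 6723 and 8268 bases.

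In this comparison the difference followed gene length, in the members as in the comparison genes, and in cHet as in cKO. Of the 43 shortest members (up to 4159 bases), 10 were higher on cKO polysomes and 1 was lower, with a median log2 difference of 0.23. Of the 43 longest (from 6658 bases), 1 was higher and 16 were lower, with a median of −0.30. Over all 13610 genes tested, of any length, 16.9% were higher and 15.6% lower. The Spearman rho of the difference with length was −0.40 across the 128 genes and −0.39 across the 7497 comparison genes. In cHet, as a description, the same rho was −0.43 across the members and −0.42 across the comparison genes. Without cKO input replicate 3 the counts were 12 higher and 3 lower among the shortest, and 2 higher and 26 lower among the longest. The shares of all genes in that fit are given above. The length used is that of the deposited gene model, and both fractions of a gene share it.

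**Figure D4:**
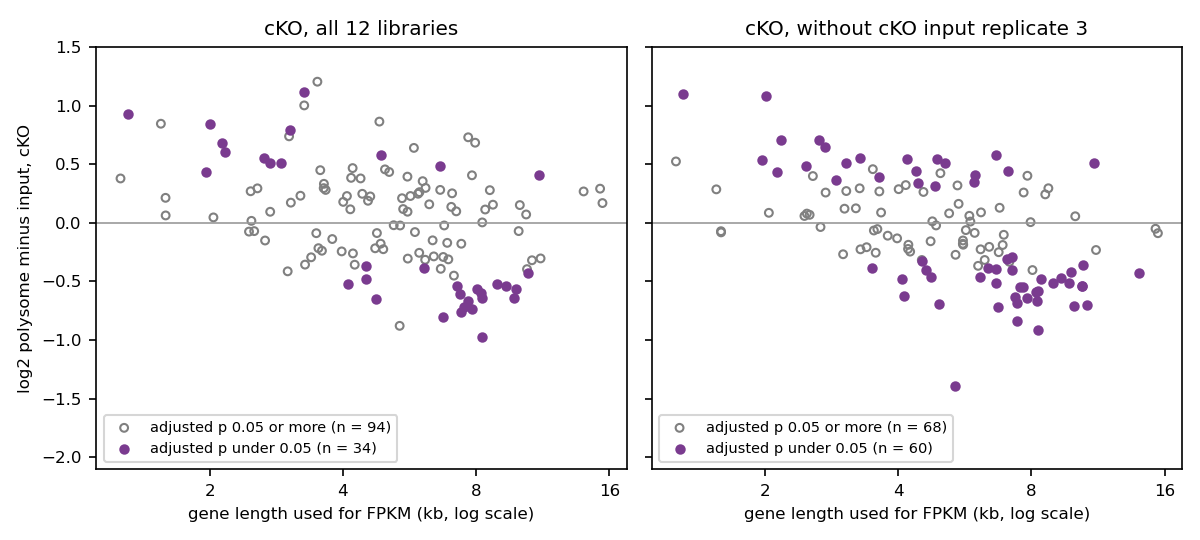
Log2 difference of cKO polysome minus cKO input for each of the 128 genes against gene length in kb (log scale), fitted on all 12 libraries (left) and without cKO input replicate 3 (right); filled points have a limma adjusted p under 0.05. In both panels most filled points above 0 are genes of under 5 kb and most filled points below 0 are genes of over 6 kb, and the right panel has 23 filled points above 0 and 37 below.

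The library that stood apart had its largest effect on AT-rich genes. Of the 43 members of lowest GC content (up to 47.1%), 3 were higher and 1 lower on cKO polysomes with all libraries, at a median log2 difference of 0.23. Leaving out cKO input replicate 3 gave 4 higher and 16 lower, at a median of −0.22. Over all genes tested the shares were 16.9% higher and 15.6% lower with all libraries, and those without that library are given above. That library followed GC content across the comparison genes too (Spearman rho 0.79), so this is not particular to the members. Zfp445, one of the regulators that keep imprints methylated, is an example: its lysates had log2 differences of −0.64, −0.85 and 0.95, the fitted value was −0.18 (limma adjusted p = 0.761), and without the library it was −0.83 (adjusted p = 0.00107). In cHet its lysates had −0.73, −0.57 and −0.92. Zfp871, named after its values were seen, had the lowest difference without that library, −1.39 (limma adjusted p = 5.3e-04). With all libraries it was −0.88, which did not pass in the fit without a block (adjusted p = 0.0654), passed with the lysate as block (adjusted p = 0.0432) and passed once the trends with length and GC content were taken out (−1.08, adjusted p = 7.7e-04). The 36 genes with a KRAB pattern had a median of 0.18 with that library and −0.04 without it.

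Among the role lists, the 9 regulators of mesenchyme and development had 8 members below 0, and 3 of the 9 were lower on cKO polysomes, beside 15.6% of all genes tested. Their median was −0.32, against 0.06 for all genes. The 3 were Zfp516, known for its part in brown fat, Zfp219, a partner of Sox9 in chondrocytes (29.6, 29.1 and 40.8 FPKM in cKO input and 22.9, 22.9 and 24.5 on polysomes; log2 −0.48, limma adjusted p = 0.0198) and Zfp335 (−0.65, adjusted p = 0.0144), known from neural progenitors. Without cKO input replicate 3, 4 of the 9 were lower, beside 20.5% of all genes, at a median of −0.25. These were Zfp516 (−0.65), Zfp219 (−0.32), Zfp335 (−0.46) and Zfp462 (−0.70). Of the 14 promoter and chromatin regulators, Zfp410, an activator of the nucleosome remodeller gene Chd4, was higher on cKO polysomes (5.65, 5.58 and 6.95 FPKM in input, 7.36, 7.57 and 9.37 on polysomes; log2 0.41, adjusted p = 0.0326), and Zfp592 and Zfp827, a telomere and nucleosome-remodelling factor, were lower (−0.76 and −0.52). Without cKO input replicate 3 these 3 values were 0.51, −0.68 and −0.52, and each passed. With the trends of length and GC content taken out, Zfp827 did not pass (−0.29, adjusted p = 0.0664). The list's median was −0.08 with all libraries and −0.39 without cKO input replicate 3, when 8 of the 14 were lower and 1 higher.

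Of the imprint and retroelement list, Zfp568, a KRAB protein that represses a placental Igf2 promoter, fell on cKO polysomes (log2 −0.61, limma adjusted p = 0.00722), and by 0.63 on the log2 scale without cKO input replicate 3. Zfp57, which binds methylated imprinting control regions, had lysate differences of 0.08, −0.40 and −0.09 and did not pass with that library (−0.14, adjusted p = 0.433) or without it (−0.11, adjusted p = 0.503). Zfp932, a silencer of retroelements with a near-identical copy, had −0.18, 0.52 and 2.66, and the last value is that of the lysate with the input library that stood apart. Its fitted difference was 1.00 (adjusted p = 0.103), and 0.29 without that library (adjusted p = 0.266). Among the 8 RNA and ribosome factors none passed with all libraries in the fit without a block. With the lysate as block Zfp106 (−0.39, limma adjusted p = 0.0380) and Zfp346 (0.38, adjusted p = 0.0455) passed, and with the trends of length and GC content taken out Zfp346 (0.44, adjusted p = 0.0427) and Zfp207 (−0.29, adjusted p = 0.0483) did. Without cKO input replicate 3, 3 fell (Zfp207, a spindle and splicing factor, −0.51; Zfp106, an RNA-binding protein of nerve and muscle, −0.54; Zfp326, of RNA polymerase II elongation, −0.29) and Zfp346, which binds double-stranded RNA, rose (0.55). Zfp598, the ubiquitin ligase that detects collided ribosomes, had lysate differences of 0.07, −0.28 and −0.86 (−0.36, adjusted p = 0.139), and −0.23 without the library (adjusted p = 0.304). Zfp622, a maturation factor of the large ribosomal subunit, had 0.19, −0.82 and −0.72 (−0.45, adjusted p = 0.0826), and −0.33 without it (adjusted p = 0.172).

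**Figure D5:**
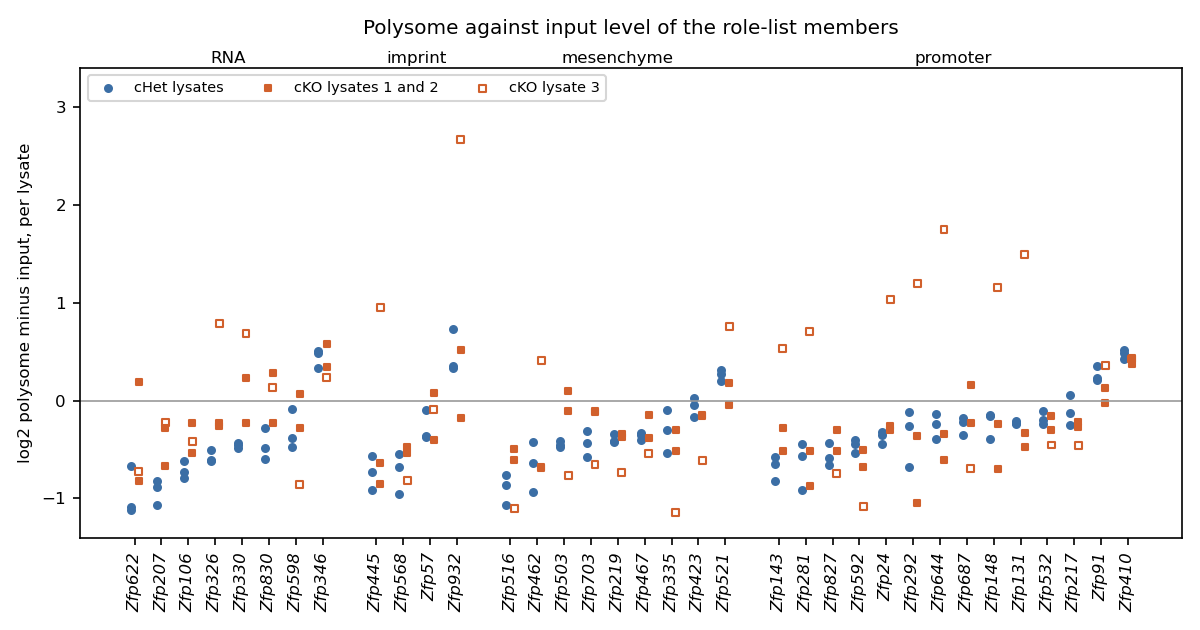
Log2 polysome minus input of the 35 members in the role lists, a point per lysate: cHet lysates (blue circles), cKO lysates 1 and 2 (filled orange squares) and cKO lysate 3 (open squares), in the order RNA and ribosome factors, imprint and retroelement silencing, mesenchyme and development, promoter and chromatin regulators. The open squares reach 2.66 in Zfp932 and lie far above the other lysates in AT-rich genes such as Zfp445 (0.95), and below them in GC-rich ones such as Zfp335 (−1.14).

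In the control lysates, whose input chose the genes, the same comparison is a description. 26 of the 128 genes had values that pass the same threshold with polysomes higher and 29 with polysomes lower, beside 27.3% and 25.9% of all 13610 genes, and nothing is read from these counts. The median log2 difference was −0.08, against 0.02 for all genes. The highest was Zfp428 (1.12) and the lowest −1.05 for Zfp609, the same genes that stand near the ends in cKO. Across the 6 lysates, 26 members were above 0 in each and 30 below 0 in each. The shares of all genes are not given here, so nothing is read from these counts either. The difference of cKO from cHet input had a median of 0.01 with 66 members above 0, and the difference between the genotypes' polysome to input differences had a median of 0.02. Over the members these descriptions followed transcript GC content with a Spearman rho of 0.65 and −0.62, and without cKO input replicate 3 the values were −0.05 and 0.37, so both turned on that library.

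The partners that KRAB members act through were read from a list of KAP1 co-repressor genes, none of which is a member. Of 21 tested, 1 was higher and 11 were lower on cKO polysomes than in cKO input by limma. Their median log2 difference was −0.44. Over all 13610 genes tested the shares were 16.9% higher and 15.6% lower. Without cKO input replicate 3 the counts were again 1 and 11 and the median −0.59, beside the shares of all genes given above for that fit. Whether the falls are particular to cKO or to this list was not tested. Trim28, which KRAB domains bind and which was named after its values were seen, had 112, 156 and 167 FPKM in cKO input and 108, 69.3 and 52.4 on cKO polysomes (log2 −0.96, SE 0.23, adjusted p = 0.00945). Dnmt1, the maintenance DNA methyltransferase (−0.92, adjusted p = 0.00124), Atf7ip, a stabiliser of the methyltransferase Setdb1 (−0.90, adjusted p = 0.00146), and Chd4, a nucleosome remodeller (−0.86, adjusted p = 0.0016), fell, and Cbx1, a reader of methylated histone H3, rose (0.88, adjusted p = 0.00199). Without cKO input replicate 3 the 5 values were −0.85, −0.87, −1.004, −0.83 and 0.70 in the same order, and each passed. Between genotypes on polysomes none of the 21 passed: the smallest p were those of Ehmt1 (log2 0.45, adjusted p = 0.184), Morc2a (0.37, adjusted p = 0.186), Cbx5 (−0.35, adjusted p = 0.202) and Pphln1 (−0.31, adjusted p = 0.244).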

How the data were processed

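Per the submitters' processing notes, HISAT2 2.0.5 and featureCounts 1.5.0-p3 were used with mm10. The authors deposited FPKM values for 54532 genes. Each FPKM times gene length returned whole reads for 100% of values within 0.01, which gave the depths. Strandedness was not stated in any source at hand, so antisense partners cannot be told apart. Replicates are those the labels name, and p-values measure the spread between them. The scale was log2(FPKM + 0.1), fitted by limma 3.58.1 with an intensity trend (R 4.3.3), which understates changes of low genes. Genes with at least 1 FPKM in at least 3 fitted libraries were tested, two-sided, at an adjusted p of 0.05 over all of them. cKO against cHet polysomes used 6 libraries, and polysome against input all 12, with the same spread for all 4 groups. An exact test of 3 against 3 cannot go below p = 0.1. The members and lists were chosen with earlier results of these data known. Transcript features came from GENCODE M21, which held all 128 members. The fits were run on simulated data with the same spread in all groups and no GC dependence. That run cannot show how they behave with a library such as cKO input replicate 3. Named genes are the role-list members, the 6 highest and 6 lowest called with separate groups in cKO polysome against input, the 5 smallest p per direction on polysomes, the 3 highest and the 3 on each side of the threshold, and up to 4 co-repressor genes per test; others were chosen after their values were seen. Input and polysome libraries of the same lysate pair by design (deviations correlated at 0.05 to 0.25). The alternatives were pseudocounts of 1 and 0.01, no filter, median-ratio and protein-coding scaling, each library left out and a replicate block. Removal of length and GC trends (loess, span 0.5) and leaving out both libraries that stood apart were chosen after seeing the data.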

Additional observations from a re-analysis of the deposited data

Results flagged for a closer look

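In 2 members every lysate of a genotype had polysome above input and every lysate of the other genotype the opposite, a difference that was not tested. The share of all genes with this pattern is not given here, so nothing is read from the count. Zfp628 had log2 polysome minus input of 0.0747, 0.00301 and 0.0381 in cHet lysates 1 to 3 and −0.161, −0.102 and −0.384 in cKO lysates 1 to 3. Zfp1 had −0.224, −0.0908 and −0.225 in cHet and 0.00643, 0.0219 and 0.111 in cKO. Several of these values are close to 0. Each cKO lysate 3 value uses cKO input replicate 3, the library that stood apart, in which the GC-rich Zfp628 was highest.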

How the results depend on the processing

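With all libraries, 13 members were higher and 21 lower on cKO polysomes than in cKO input, beside 16.9% and 15.6% of all genes tested. The shares of all genes also changed when cKO input replicate 3 was left out. So the counts in this section are not read as results about the members. Without a filter on low values 7 were higher, with protein-coding scaling 7 and 32, with length and GC trends removed 28 higher, and without cKO input replicate 3 and cKO polysome replicate 1 together 37 and 45; leaving out a library gave 3 to 24 higher and 12 to 37 lower. The members' median there was −0.033 with protein-coding scaling, 0.019 with trends removed, −0.12 without both libraries and −0.083 to 0.14 over single libraries left out. For cKO against cHet polysomes, 0 to 3 members passed when a library was left out, and the median was 0.058 with median-ratio scaling, 0.14 with protein-coding scaling and 0.036 with trends removed. The input genotype median was −0.025, −0.039 and 0.058 under the same settings and 0.0035 to 0.083 with a library left out. The cHet polysome to input median was −0.31 with protein-coding scaling, 0.036 with trends removed and −0.11 to −0.063 with a library left out. The difference between the genotypes' ratios had a median of 0.12 with protein-coding scaling, −0.035 with trends removed, −0.037 without both libraries and −0.038 to 0.047 with a library left out. Causes were not tested.

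With the lysate as replicate block, 15 members were higher and 19 lower on cKO polysomes; between genotypes, where equal numbers do not pair lysates (r −0.28 to 0.17), the replicate block called 0 members. In cKO polysome against input, Zfp146 no longer passed without a filter (adjusted p = 0.0725) and with protein-coding scaling (0.0676), nor Zfp105 with that scaling (0.0810) and with trends removed (0.0944). Protein-coding scaling moved the median of all genes from 0.02 to −0.21 in the cHet ratio and from 0.02 to 0.12 in the difference of ratios. A planned voom fit is not reported, because the deposited unit is FPKM and count models were not run on it in the end. With 3 libraries a group, small differences could not be detected; the lowest member count of 51 reads limits the precision of low genes.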
